A study of Mus musculus with 8 samples.

Results

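Mouse ES cells of the E14Tg2A.4 line were either kept untreated or given 1 µM all-trans retinoic acid (RA) for 3 days in medium that lacked leukemia inhibitory factor, the cytokine that keeps ES cells undifferentiated. Each condition had 4 biological replicates, whose RNA was read on mouse arrays of Agilent with 1 dye. A spot of such an array is the brighter the more of its transcript the RNA holds. RA and the loss of the cytokine came together, so their effects cannot be told apart, and all cells come from a single ES cell line. The comparison asked here is how the classical structural markers of neural progenitors and neurons differed between the 2 conditions. The markers were *Nes*, *Tubb3*, *Tubb2b*, *Map2*, *Dcx*, *Ncam1*, *Gap43*, *Stmn2*, *Elavl3* and *Elavl4*, a set defined by gene names alone. A probe that is not a control belonged to the set if the array named 1 of these genes, which gave 15 probes of 9 genes. *Map2* stands on the array under its older name *Mtap2* and was added through the transcript that its 2 probes cite. The set therefore holds 10 genes and 17 probes, of 36406 gene names and 55681 probes on the array.

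A neural progenitor carries the intermediate filament protein nestin, and gives it up as it becomes a neuron. The young neuron then builds axons and dendrites from microtubules, which need neuron-typical tubulins (*Tubb3*, *Tubb2b*), proteins that bundle or stabilise microtubules (*Map2*, *Dcx*) and proteins that let them shrink and grow again (*Stmn2*). Growth cones hold GAP-43 under the membrane, the adhesion molecule NCAM sits on the surface of progenitors and neurons, and the Elavl proteins bind AU-rich stretches of neuronal mRNAs. RA is widely used to drive ES cells towards neural cells, and monolayers exposed to it also yield endodermal and mesenchymal cells.

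Each value below is a log2 signal relative to the 75th percentile of its own array, so that 0 is the brightness of a spot at that percentile. Probes differ in how well they hybridize, and the level of a gene is therefore compared between arrays and never with that of another gene. For a gene with several probes, the probe that was brightest on average over the 8 arrays stands for the gene. It was called higher or lower if the adjusted p of limma over all probes was below 0.05 and the change exceeded 1.5-fold. Between 33629 and 37175 spots per array were well above background, and no spot was saturated. Replicate arrays correlated at 0.979 to 0.988 among untreated and at 0.988 to 0.994 among RA-treated cells. Over all probes the median difference between RA-treated and untreated cells was -0.28 on this scale and -0.0026 after quantile normalization, so a value of -0.28 marks a probe that moved with the bulk of the array.

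The 10 markers did not move as a group. After RA, *Nes*, *Dcx*, *Ncam1* and *Gap43* rose, *Tubb3*, *Stmn2* and *Elavl3* fell, and *Tubb2b*, *Map2* and *Elavl4* were not called. Of all genes, 13.9% were called higher and 22.1% lower. The 4 RA-treated arrays lay beyond all 4 untreated arrays for each of the 7 called markers, which is also the case upwards for 15.2% and downwards for 25.2% of all genes. The median difference of the 10 genes was -0.17 on the log2 scale, against -0.28 over all genes. Of the 17 probes, 5 were called higher and 4 lower, against 12.9% and 21.6% of all probes, and their median was -0.11. In a mixed culture, a smaller number of cells of a type and less RNA in each of them cannot be told apart, and this holds for every value that follows.

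**Figure D1:**
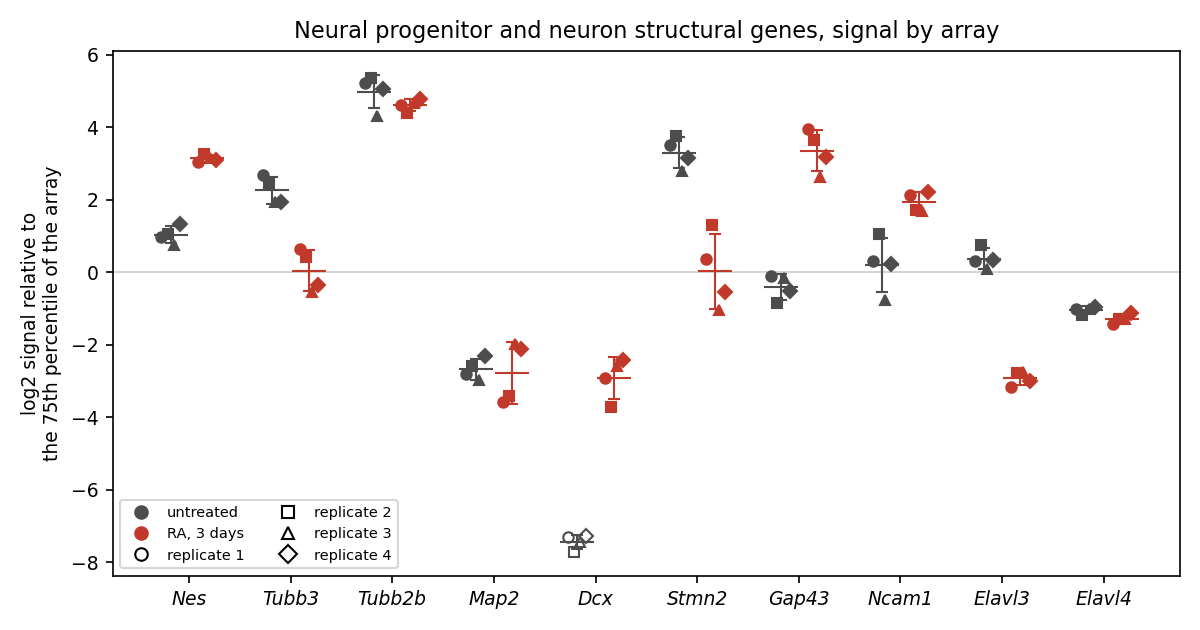
Log2 signal relative to the array's 75th percentile (y axis) for the probe that represents each of the 10 genes (x axis), with untreated arrays in grey, RA-treated arrays in red, a symbol for each replicate, a horizontal line for the mean and bars for the SD of 4 arrays. Open symbols mark arrays on which the probe was not well above background, which is the case for *Dcx* in untreated cells, and red lies wholly above grey for 4 genes, wholly below it for 3 and overlaps it for 3.

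A pair of promoters shows the sequence upstream of a marker that rose and of a marker that fell. They are the 250 bases before the transcription start in RefSeq (GRCm38.p6), printed 5′ to 3′ on the strand of the gene. Capitals mark the only match found in either to 7 short motifs searched on both strands, which were the half-site AGGTCA of the retinoic acid receptor with its variants GGGTCA or AGTTCA, the E-box CAGCTG with its variant CATCTG, and both half-sites of the repressor REST, TTCAGCACC on the left with GGACAGC on the right.
Nes, chr3:87970843-87971092, plus strand: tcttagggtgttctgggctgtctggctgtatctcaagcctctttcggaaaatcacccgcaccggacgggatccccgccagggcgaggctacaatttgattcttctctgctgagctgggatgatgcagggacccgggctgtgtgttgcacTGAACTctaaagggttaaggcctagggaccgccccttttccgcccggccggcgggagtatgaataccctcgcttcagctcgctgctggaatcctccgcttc
Tubb3, chr8:123411303-123411552, plus strand: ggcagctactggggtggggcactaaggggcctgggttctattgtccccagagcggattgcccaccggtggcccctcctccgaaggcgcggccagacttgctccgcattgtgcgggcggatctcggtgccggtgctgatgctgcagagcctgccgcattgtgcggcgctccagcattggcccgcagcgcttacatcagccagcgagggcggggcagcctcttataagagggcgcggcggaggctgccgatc
The capitals in the *Nes* promoter are AGTTCA read on the other strand, and their first base lies at position -101. Of 32851 RefSeq promoters of this length, 11.8% hold AGTTCA. The *Elavl3* window held CAGCTG at position -43, as 13.0% of promoters do, the *Map2* window held GGACAGC on the other strand at position -220, as 5.28% do, and the windows of both *Dcx* starts held none of the 7 motifs. *Elavl4* had 4 windows. In 2 of them, which overlap, AGGTCA, the variant AGTTCA and both E-boxes were found, 1 held only CATCTG and 1 held none, and 14% of all promoters hold AGGTCA, 14.4% CATCTG. A match is a stretch of letters and says nothing about binding. *Tubb2b*, *Ncam1*, *Gap43* and *Stmn2* had no entry in the table of promoters.

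The transcript of the progenitor filament rose. The *Nes* signal, read by a probe at chr3:87784303-87784362 on mm9, was 0.99, 1.07, 0.77 and 1.34 in untreated replicates 1 to 4 and 3.05, 3.26, 3.16 and 3.11 after RA. The RA-treated arrays lay close together and far above the highest untreated array. The mean went from 1.04 ± 0.24 to 3.14 ± 0.088 (SD, n = 4), which is 4.29-fold or a log2 difference of 2.10 with an SE of 0.16 (limma, adjusted p = 2e-05). It was 2.20 on the first slide and 2.00 on the other, each of which carried 2 arrays of each condition.

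Other genes of neural progenitors rose with *Nes* in part. Of 16 such genes, 7 were called higher, 1 lower and 8 were not called, and their median difference was 0.71, beside 13.9% called higher, 22.1% called lower and a median of -0.28 over all genes. The largest changes were those of *Irx3*, a homeobox gene of the neural tube (log2 difference 5.28 with an SE of 0.16), *Pax3*, a paired-box gene of the dorsal neural tube that mesoderm uses as well (4.19 with an SE of 0.35), and *Vim*, the intermediate filament vimentin, which most mesenchymal cells also carry (3.98 with an SE of 0.19). The neuroectodermal transcription factors *Sox1*, *Sox3* and *Pax6*, named here after their values were seen, were not called, with differences of 0.42, 0.51 and -0.64 and adjusted p of 0.307, 0.329 and 0.229.

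Among the tubulins and their partners, the gene of β-III-tubulin, a classical neuron marker, fell. *Tubb3* (chr8:125945850-125945909, mm9) gave 2.69, 2.48, 1.94 and 1.95 in untreated cells and 0.64, 0.42, -0.54 and -0.34 after RA. Its lowest untreated array was still above its highest RA-treated array, and RA replicates 1 and 2 stayed higher than 3 and 4. The mean dropped from 2.27 ± 0.38 to 0.045 ± 0.57 (SD, n = 4), a 4.66-fold decrease (log2 difference -2.22, SE 0.31, adjusted p = 0.000521 in limma). Within the slides it was -2.17 and -2.27.

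*Tubb2b*, a β-tubulin of young neurons that other cells express as well, was bright in both conditions and was not called. The probe that represents it (chr13:34219092-34219151, mm9) gave 5.23, 5.35, 4.31 and 5.07 before and 4.63, 4.41, 4.67 and 4.79 after RA, and untreated replicate 3 was the lowest of all 8 arrays. The difference was -0.37 with an SE of 0.24 and a 95% confidence interval from -0.90 to 0.17 (limma, adjusted p = 0.227), with -0.062 and -0.67 within the slides. Without untreated replicate 3 it was -0.59 and was called lower (adjusted p = 0.0173). A dimmer probe that shares 29 bases with the first gave -0.65 with an SE of 0.23 and an adjusted p of 0.0511 and was not called. It was called lower in 7 of 18 alternatives, among them the replicate number as a block (adjusted p = 0.0366) and the authors' values (0.0391).

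*Map2* encodes a protein that binds microtubules in dendrites. Its probe (chr1:66488783-66488842, mm9) gave -2.81, -2.57, -2.98 and -2.31 in untreated cells and -3.59, -3.42, -1.97 and -2.12 after RA. The untreated arrays lay between the RA-treated ones, of which 1 and 2 were low and 3 and 4 high. The SD was accordingly 0.85 after RA and 0.29 before, and the difference of -0.11 (SE 0.39, adjusted p = 0.833 in limma) had a 95% confidence interval from -0.99 to 0.78. A probe 0.2 kb away split the RA-treated arrays the same way, at -4.77 and -4.76 against -2.95 and -3.26, with the same difference of -0.11. Leaving out 1 array at a time moved the value between -0.38 and 0.16, so *Map2* has no settled sign, and it was called under none of the alternatives tried.

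Doublecortin appeared. *Dcx*, whose product stabilises microtubules in migrating young neurons, rose out of the background, being well above it on all 4 RA-treated arrays and on 0 of 4 untreated arrays at the probe chrX:140290854-140290913 (mm9). The RA-treated arrays read -2.92, -3.72, -2.57 and -2.42, and the untreated arrays read -7.31, -7.71, -7.45 and -7.26. All RA-treated arrays lay several log2 units above all untreated ones, replicate 2 being the lowest of them. Since the untreated signal is not distinguishable from background, the change is a bound. The mean after RA, -2.91 ± 0.58 (SD, n = 4), was at least 5.78-fold higher than the dimmest signal that still counts as well above background on the untreated arrays (limma on the measured means, adjusted p = 8.35e-06). The size depends on the background correction. The log2 difference was 1.39 with normexp and its offset, 1.57 with quantile normalization after it and 1.55 in the authors' values, all below this bound and all called. Both other *Dcx* probes, 5.0 and 5.5 kb away, were well above background on no array, so the rise rests on a single probe. The scanner output lists the same 4 RefSeq transcripts for each of these probes, and why they differ was not tested.

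The growth cone gene rose and the stathmin gene fell. *Gap43*, whose product is a membrane-bound phosphoprotein of growing axons, gave -0.092, -0.84, -0.16 and -0.53 in untreated cells at chr16:42248714-42248773 (mm9). After RA it gave 3.95, 3.66, 2.64 and 3.18. The lowest RA-treated array was well above the highest untreated one. From a mean of -0.40 ± 0.35 to 3.36 ± 0.57 (SD, n = 4) it rose 13.6-fold (log2 difference 3.76, SE 0.30, adjusted p = 2.8e-05 in limma), by 3.69 and 3.84 within the slides.

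*Stmn2*, which encodes the neuronal stathmin SCG10 that destabilises microtubules in growth cones, went the other way. At chr3:8561545-8561604 (mm9) it read 3.52, 3.75, 2.78 and 3.15 in untreated cells and 0.38, 1.31, -1.03 and -0.54 after RA. The groups did not overlap, but the RA-treated arrays were spread widely, with replicate 2 the highest and replicate 3 the lowest. The mean fell from 3.30 ± 0.42 to 0.028 ± 1.04 (SD, n = 4), which is 9.67-fold lower (log2 difference -3.27, SE 0.48, adjusted p = 0.00071 in limma). On the slides the difference was -3.23 and -3.32.

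RA replicates 1 and 2 were both higher than 3 and 4 for *Tubb3*, *Stmn2* and *Gap43* and both lower for *Map2*, *Dcx*, *Tubb2b* and *Elavl4*, the last pair by small steps. For the other 3 genes the replicates were mixed. This split was picked after the values were seen, and the share of all genes that show it was not counted. It is a split that does not follow the slides, since replicates 1 and 4 shared 1 slide and 2 and 3 the other. The mean of 10 ES cell markers was likewise 0.37 and 1.44 in RA replicates 1 and 2, and 0.016 and -0.69 in 3 and 4, against 4.74 to 5.11 in untreated cells. Whether remaining ES cells take part in these values was not tested.

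*Ncam1* encodes the neural cell adhesion molecule, which is made as several isoforms, and its 3 probes gave different values. The brightest (chr9:49310320-49310379, mm9) read 0.32, 1.06, -0.77 and 0.24 in untreated cells and 2.15, 1.73, 1.69 and 2.22 after RA. Every RA-treated array was above every untreated one, and the untreated arrays differed more among themselves. The mean went from 0.21 ± 0.75 to 1.95 ± 0.28 (SD, n = 4), a 3.34-fold rise (log2 difference 1.74, SE 0.35, adjusted p = 0.00427 in limma). The difference was 2.41 on the slide with untreated replicates 1 and 3 and 1.06 on the slide with 2 and 4.

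The *Ncam1* probe farthest from the brightest is shown because the scanner output lists 3 RefSeq transcripts for it, against 2 for the brightest and 1 for the remaining one. Its 60 bases can be read in 1 frame through without a stop codon. This does not set it apart, since the *Nes* probe also has 1 such frame and the remaining *Ncam1* probe has 2. The probe sits 40.9 kb from the brightest one.
Ncam1, chr9:49351182-49351241 (mm9), minus strand: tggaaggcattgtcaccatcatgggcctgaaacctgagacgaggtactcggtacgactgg
It read -2.93, -2.05, -2.90 and -2.21 before and -1.67, -2.04, -1.70 and -1.57 after RA, so that RA replicate 2 and untreated replicate 2 were nearly level. It was called higher at 0.78 (SE 0.24, adjusted p = 0.0299 in limma), but not with the replicate number as a block (adjusted p = 0.057), and it missed a threshold in 9 of 18 alternatives. The remaining probe, 13.1 kb from the brightest, was well above background on 2 RA-treated arrays and on no untreated array, at a difference of -0.059 for which no fold is given. The brightest probe changed by 0.96 more than the one printed (exact permutation test over the 8 arrays, two-sided, p = 0.0286, the smallest that 4 against 4 arrays allow). Adjusted over the 4 pairs of probes of the same gene that were measured in both conditions it was 0.0571, and no pair passed 0.05. With arrays exchanged only within a replicate number, the smallest p possible is 0.125.

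**Figure D2:**
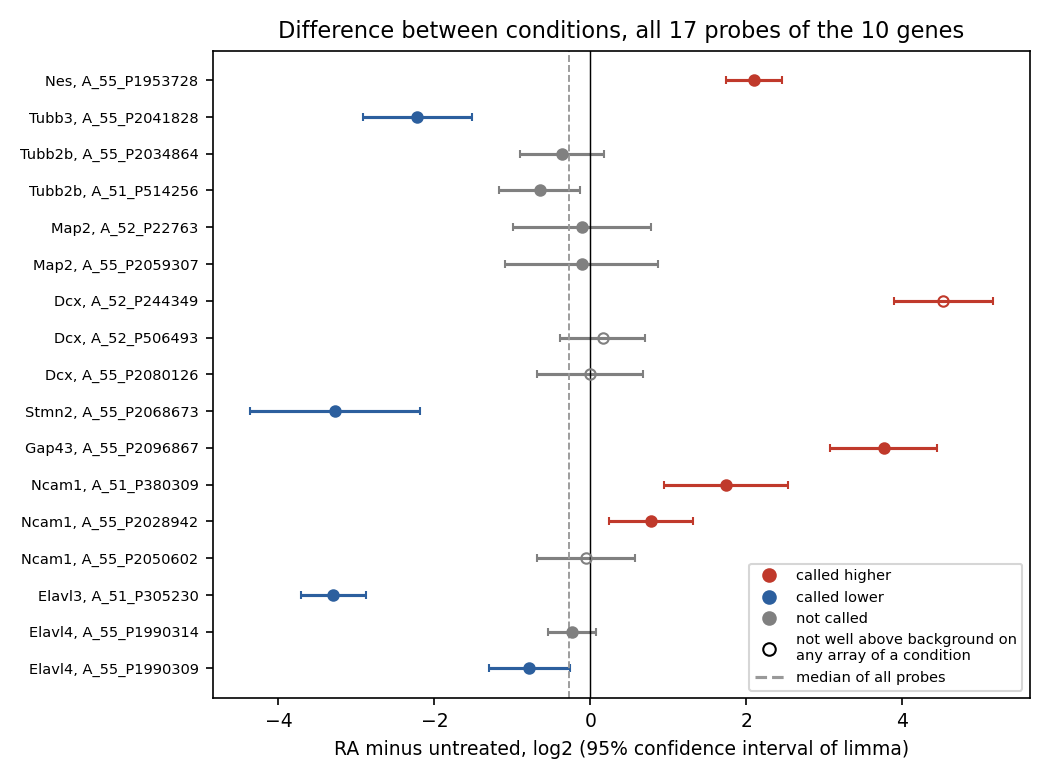
Difference between RA-treated and untreated cells on the log2 scale (x axis) for each of the 17 probes (y axis), with the 95% confidence interval of limma from 4 arrays per condition and a dashed line at the median of all probes, -0.28. Red and blue points mark probes called higher and lower, open points mark probes not well above background on any array of at least 1 condition, and *Ncam1*, *Dcx* and *Elavl4* each have probes with different calls.

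The transcript of the neuronal RNA-binding protein HuC was among those that fell. *Elavl3* (chr9:21822471-21822530, mm9) read 0.33, 0.77, 0.092 and 0.33 in untreated cells and -3.15, -2.78, -2.75 and -3.00 after RA. The arrays of each condition lay close together and far from those of the other. The mean fell from 0.38 ± 0.28 to -2.92 ± 0.19 (SD, n = 4), or 9.84-fold (log2 difference -3.30, SE 0.18, adjusted p = 5.32e-06 in limma), by the same -3.28 and -3.31 on both slides. The size depends on the processing, with -2.69 under normexp, -2.60 with quantile normalization after it and -2.58 in the authors' values.

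*Elavl4*, which encodes the related HuD, changed little. Its brighter probe (chr4:109877455-109877514, mm9) read -1.01, -1.18, -1.001 and -0.95 before and -1.43, -1.28, -1.27 and -1.11 after RA. Only RA replicate 4 reached into the untreated range. The difference of -0.24 (SE 0.14, adjusted p = 0.197 in limma) had a 95% confidence interval from -0.55 to 0.069 and was close to the -0.28 of all probes. A dim probe 1.1 kb away was called lower at -0.79 (SE 0.23, adjusted p = 0.0243), missed a threshold in 11 of 18 alternatives, and had an adjusted p of 0.0501 with the replicate number as a block. The probes differed by -0.55 (exact permutation test, two-sided, p = 0.0286, adjusted 0.0571).

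Other genes of these families went both ways. Of 27 relatives, 10 were called higher, 8 lower and 9 were not called, with a median difference of 0.0021, against 13.9% called higher, 22.1% called lower and a median of -0.28 over all genes. With quantile normalization 11 were called higher and 5 lower. The 3 that changed most were *Stmn4*, a brain stathmin (log2 difference 4.52, SE 0.41), *Stmn3*, another neuronal stathmin (-3.00, SE 0.30), and *Tuba8*, an α-tubulin (2.87, SE 0.50). *Stmn4* and *Stmn3* thus moved in opposite directions, with *Stmn3* falling like *Stmn2*. Some other relatives, named after their values were seen, were a further neuronal Elavl gene, *Elavl2* at -2.39 (SE 0.24, adjusted p = 7.9e-05) and the broadly expressed *Elavl1* at -0.025 (adjusted p = 0.9). The genes of the axonal proteins tau and MAP1A changed by -2.73 (*Mapt*) and -2.59 (*Map1a*) on the log2 scale. *Tuba1a*, an α-tubulin abundant in developing neurons, rose by 1.65, and *Tubb2a*, a close relative of *Tubb2b*, was at 0.0021 (adjusted p = 0.992). The relatives of GAP-43 in growth cones, *Basp1*, *Marcks* and *Marcksl1*, rose by 1.28, 1.55 and 0.86.

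Neurofilament, axon and adhesion genes also went both ways. Of 21 such genes, 9 were called higher, 6 lower and 6 were not called, and the median difference was 0.50 (all genes: 13.9% higher, 22.1% lower, median -0.28). The 6 called lower became 3 in the authors' values and with normexp followed by quantile normalization. The largest changes were those of *Robo2*, an axon guidance receptor, which was at least 107.5-fold higher after RA, of *Dpysl2*, a collapsin response mediator that promotes microtubule assembly in axons (log2 difference 3.61, SE 0.18), and of *Nefh*, the heavy neurofilament subunit (-3.31, SE 0.27). The bound of *Robo2* holds for the background subtraction used here, on which that of *Dcx* depended. The other neurofilament genes, named after their values were seen, fell with it (*Ina* -3.25, *Nefl* -1.79 and *Nefm* -1.40), while *Prph*, a neuronal filament gene of peripheral neurons, rose by 3.20.

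Synapse and transmitter genes of mature neurons also held members of both kinds. Of 26 such genes, 5 were called higher, 10 lower and 11 were not called, where 13.9% and 22.1% of all genes were called higher and lower. The share called higher is near that of all genes, and the 10 called lower became 6 without untreated replicate 1, 2 or 4. The median difference was -0.54, and 3 genes were not well above background in either condition. It was -0.10 with those 3 set to 0 and genes below background in 1 condition set to their bound. *Syt4*, a synaptotagmin of secretory vesicles, was at least 8.32-fold lower after RA, *Syn2*, a synapsin, was at least 7.83-fold higher, and *Chga*, the granule protein chromogranin A, fell by 3.25 (SE 0.33). The bounds of *Syt4* and *Syn2* likewise hold for the background subtraction used here. *Rbfox3*, which encodes the neuronal nuclear antigen NeuN and was named after its values were seen, fell by 2.73 at its brightest probe (SE 0.23), and its 3 probes all went down.

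Other cell types moved alongside the markers. All 10 ES cell markers fell, and their summed signal went from 354 to 500.5 times the 75th percentile in untreated arrays to 19.05 to 45.9 after RA. Primitive endoderm markers rose in 11 of 11 cases (summed signal 101 to 149 before, 281 to 323 after), and 8 of 11 mesoderm and smooth muscle markers rose (3.02 to 4.28 before, 263 to 493 after). Such a sum weighs bright probes most. Examples, named after their values were seen, are *Sparc* of the endoderm list (mean log2 6.68 before, 7.78 after) and *Tagln* of the mesoderm list (0.74 before, 7.61 after). Of 8 glial markers 2 were called higher, 1 lower and 5 were not called, with a median difference of 0.051, beside 13.9% called higher and 22.1% called lower over all genes. In the authors' values a single glial marker was called, and it was higher. Their summed signal was 1.34 to 1.83 before and 3.91 to 4.66 after, with the myelin gene *Mbp*, named after its values were seen, at a log2 difference of 2.36. Of 7 neural crest markers 3 were called higher and 2 lower, with a median difference of 1.11. Their mean log2 signal went from between -1.86 and -1.77 to between -1.25 and -0.99, whereas their summed signal went from between 7.01 and 9.94 to between 4.86 and 6.50, so that the sum and the mean of logs moved in opposite directions. Those called lower were *Foxd3* (-5.92) and *Ngfr* (-3.35). Those called higher were *Sox9* (a bound of 37.7-fold), *Ets1* (3.39) and *Snai2* (2.03). *Sox10* stands in both lists. The glial gene *S100b* was not well above background in either condition, and neither was the early mesoderm gene *Mixl1*, the 1 gene of its list called lower. *Nes* and *Ncam1* are also known from muscle precursors, and the part of other cell types in the changes of the markers was not tested.

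The 7 called markers kept their sign under every alternative listed in the closing section. Leaving out 1 array moved *Stmn2* the most in size, to between -3.70 and -2.92. *Dcx* was lowered most, by the background correction given above, and *Ncam1* was 0.82 as the mean of its probes. For *Dcx* that mean was the 4.52 of its single bright probe, so this alternative did not weigh its probes at background.

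**Figure D3:**
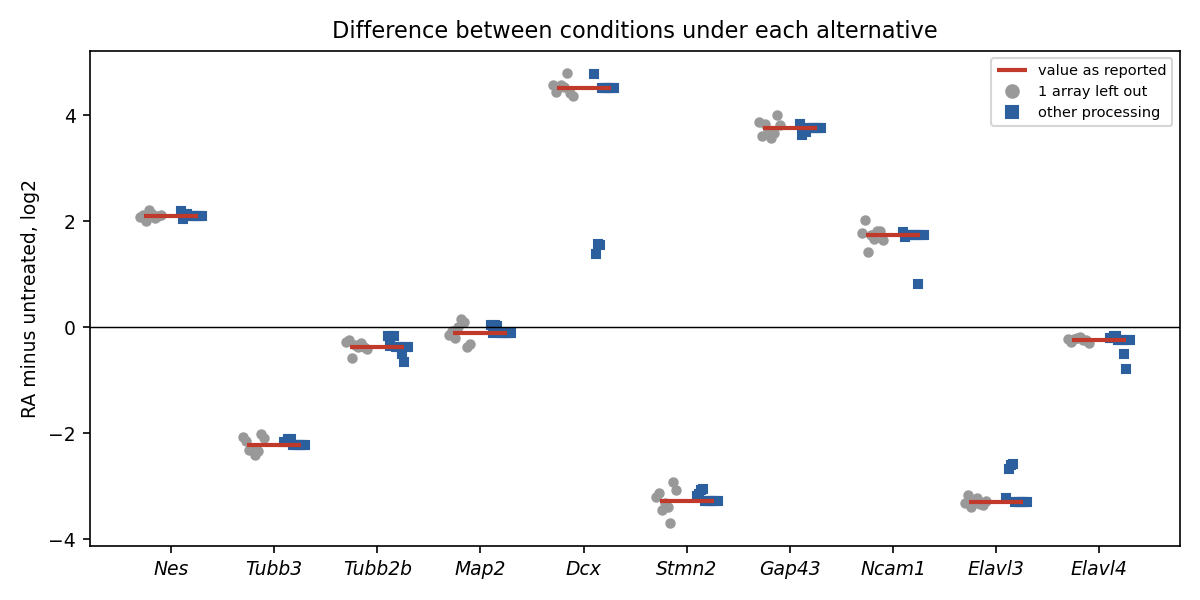
Difference between RA-treated and untreated cells on the log2 scale (y axis) for each of the 10 genes (x axis), as reported (red line), with 1 of the 8 arrays left out (grey circles) and under the other ways of processing (blue squares). Points of the 4 genes that rose stay above 0, those of the 3 that fell stay below it, and *Map2* lies on both sides.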

How the data were processed

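The authors deposited 1 table per array from the software Agilent Feature Extraction (version 10.7.3.1), whose intensity per spot had been background-subtracted but not normalized between arrays. Raw spot and background signals and quality flags stand beside it. The authors also deposited log2 values of the same spots, whose background correction and normalization are not given in the sources used here. Positions are those of the scanner output (mm9).

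In R (version 4.3.3), processed intensities were put on the log2 scale and set against the 75th percentile of the array's 59305 non-control spots. Control spots (3671) and outlier spots (124 to 145 per array) were dropped, and spots of a probe were averaged. RA-treated and untreated arrays were compared by limma (version 3.58.1; lmFit, then eBayes). P-values were adjusted by Benjamini-Hochberg over 55681 probes, and calls needed an FDR below 0.05 with a change of over 1.5-fold, the limits of the study's methods. Where a probe was well above background on no array of a condition, the fold is a bound against the higher of the lowest spot well above background and the probe's own signal, averaged over the arrays. The steps were tested on simulated data. Precision is limited by the 4 arrays per condition.

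The members and gene lists were chosen with earlier results of these data known. All members are named, and from each of the 4 lists of related genes the 3 called genes with the largest change that were well above background on all arrays of a condition. All listed genes were found, *Map1a*, *Map1b*, *Map4* and *Map6* like *Map2* through their transcripts.

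Over 27491 probes, deviations of same-numbered arrays from their condition means correlated at 0.186, 0.189, 0.104 and 0.151 for replicates 1 to 4, which passes the limit of 0.1 set for a pairing. The values in the report come from the fit without the replicate number, and the fit with it as a block is an alternative. The highest correlation between different numbers was 0.142, for untreated replicate 1 and RA replicate 4, which shared a slide. RA replicate 3 correlated more with untreated replicate 4 on its slide (0.130) than with its own number. Same-numbered arrays of replicates 1 and 2 also shared a slide, so slide and replicate number are partly mixed. Slides coincide with scan times and hold 2 arrays of each condition. Alternatives were quantile normalization, normexp background correction with an offset of 50 (with either scaling), the authors' log2 values, a filter on dim probes, slide or replicate number as a block, other rules for several probes of a gene, a fold change above 2, limma's treat against 1.5-fold, and leaving out each array.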

Additional observations from a re-analysis of the deposited data

How the results depend on the processing

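Under every alternative 4 of the 10 genes were called higher. The number called lower was 3, or 4 where *Elavl4* took its probe with the lowest p (-0.79, adjusted p = 0.0243) or where untreated replicate 3 was left out and *Tubb2b* was called (-0.59). Of the 17 probes, 4 to 5 were called higher and 3 to 6 lower, 6 without untreated replicate 3. Without *Map2*, whose probes do not carry that name (an alternative added after seeing the data), the counts were 4 and 3 of 9 genes. No called value changed sign. With the replicate block the genes called remained 4 higher and 3 lower, and 4 probes were called in each direction, the block changing the calls of the 3 probes named in the report and no other member. The call of the printed *Ncam1* probe was lost without untreated replicate 1 or 3 or RA replicate 1, 3 or 4 (0.64 to 0.77), and that of the dim *Elavl4* probe without untreated replicate 1 or 4 or RA replicate 1 or 3 (-0.79 to -0.57). With the slide as a block the dim *Tubb2b* probe was called (adjusted p = 0.047).

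Counts over the gene lists moved more. Of the relatives called lower, 8 became 5 with quantile normalization, with a fold change above 2 and with treat. Of the neurofilament, axon and adhesion genes called lower, 6 became 3 with normexp and quantile normalization and with the authors' values, and 2 with treat. Of the synapse genes called lower, 10 became 6 without untreated replicate 1, 2 or 4 and with a fold change above 2, and 4 with treat, which also left 3 of the 5 called higher. Among progenitor genes, 1 called lower became 2 without untreated replicate 3 and 0 with treat. Counts of 1 or 2 glial and mesoderm markers moved by 1 under several alternatives, leave-one-out included. For these list counts the cause was not tested.

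The signal over background limits *Dcx* most. With normexp and its offset the fitted difference was 1.39, against 4.52 with the measured means, 1.57 when quantile normalization followed and 1.55 with the authors' values, and it was called in each. The corresponding values of *Elavl3*, dim after RA, were -2.69, -2.60 and -2.58 against -3.30. Across all alternatives the difference ranged from 2.01 to 2.20 for *Nes*, from 3.57 to 4.00 for *Gap43*, from 0.82 to 2.02 for *Ncam1*, from -2.42 to -2.03 for *Tubb3* and from -3.70 to -2.92 for *Stmn2*.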
